A study of Mus musculus with 4 samples.

Results

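The genes described here encode mitochondrial respiration and fatty acid oxidation in mouse 3T3-MEFs, embryonic fibroblasts grown by serial passage into a permanent line. They are 51 symbols set by name: 17 subunits of respiratory complex I, 4 of complex II, 6 of complex III with cytochrome c, 6 of complex IV, 7 enzymes of the citric acid cycle, 8 of beta-oxidation, and 3 genes of mitochondrial biogenesis and uncoupling. They stand among 18193 genes that had a probe set of their own. Of the 51, 49 had such a probe set, and 48 lay above the filter on signal and were tested. Cox7b and Ucp2 were not analysed here.

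Total RNA was measured on 4 Affymetrix arrays, 2 of SMRTmRID 3T3-MEFs and 2 of wild-type 3T3-MEFs, all harvested undifferentiated at confluence. Nuclear receptors bind the corepressor SMRT to keep target genes silent, and SMRTmRID is a form of it mutated in the receptor interaction domains. The comparison asks how the transcriptome of the mutant cells differs before adipogenic differentiation. The labels call the arrays of a genotype technical replicates and give no number of lines, embryos or cultures, so each p-value below rests on technical spread and each genotype may be 1 line.

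In the respiratory chain, complex I takes electrons from NADH and complex II, an enzyme of the citric acid cycle, takes them from succinate. Both pass them through ubiquinone to complex III, and cytochrome c carries them on to complex IV, which reduces oxygen. Fatty acids enter the matrix as carnitine esters and are shortened by acyl-CoA dehydrogenases and later enzymes, and the resulting acetyl-CoA feeds the citric acid cycle. Most of these proteins are encoded in the nucleus, where NRF1, GABP, oestrogen-related receptors and PPARs are known regulators of their genes.

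Most respiratory chain and citric acid cycle genes of this set were lower in SMRTmRID cells, whereas 5 of its 8 beta-oxidation genes were higher. Complexes I to IV had 31 tested genes, of which 23 fell and 1 rose, and the median log2 difference of the 31 was -0.28. Of 7 citric acid cycle genes 6 fell and 1 rose, with a median of -0.35. Of 8 beta-oxidation genes 5 rose and 1 fell, with a median of 0.27. Outside this set, 19 other mitochondrial beta-oxidation genes did not share that direction: 9 fell and 5 rose. Of 6 other citric acid cycle genes 2 fell and 2 rose. Each difference is the mean log2(signal + 16) of SMRTmRID minus that of wild-type, and a change is a Benjamini-Hochberg adjusted p under 0.05 from limma over 11057 genes.

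Over all 48 tested genes 30 fell (62.5%) and 7 rose (14.6%), against a background of 35.0% lower and 30.3% higher among all genes tested. Among the 6834 genes above the 75th percentile of signal, where 47 of the 48 lie, 42.6% were lower and 32.8% higher. The median was -0.24 over the 48 genes and -0.05 over all tested genes. The changes were small: none of the 48 reached 2-fold, against 16.5% of all tested genes, and 14 reached 0.5 on the log2 scale, against 43.8%. In all 37 of the 48 passed, against 65.2% of all tested genes. There was no overlap between SMRTmRID and wild-type arrays for 32 genes lower in SMRTmRID and 13 higher, against 43.4% lower and 38.1% higher among all tested genes. With quantile normalization in place of the MAS5 scaling alone, 13 of the 48 rose and 27 fell.

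The arrays of a genotype lay close together for these groups. Set against the wild-type mean of each gene, complex I to IV genes averaged -0.29 and -0.30 (log2) on the SMRTmRID arrays, against -0.02 and 0.02 on the wild-type arrays. Beta-oxidation genes averaged 0.18 and 0.25 on the SMRTmRID arrays, against 0.02 and -0.02 on the wild-type arrays. In both groups the genotypes did not overlap. In RNA from a whole culture, fewer cells of a type and less RNA per cell cannot be told apart.

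**Figure D1:**
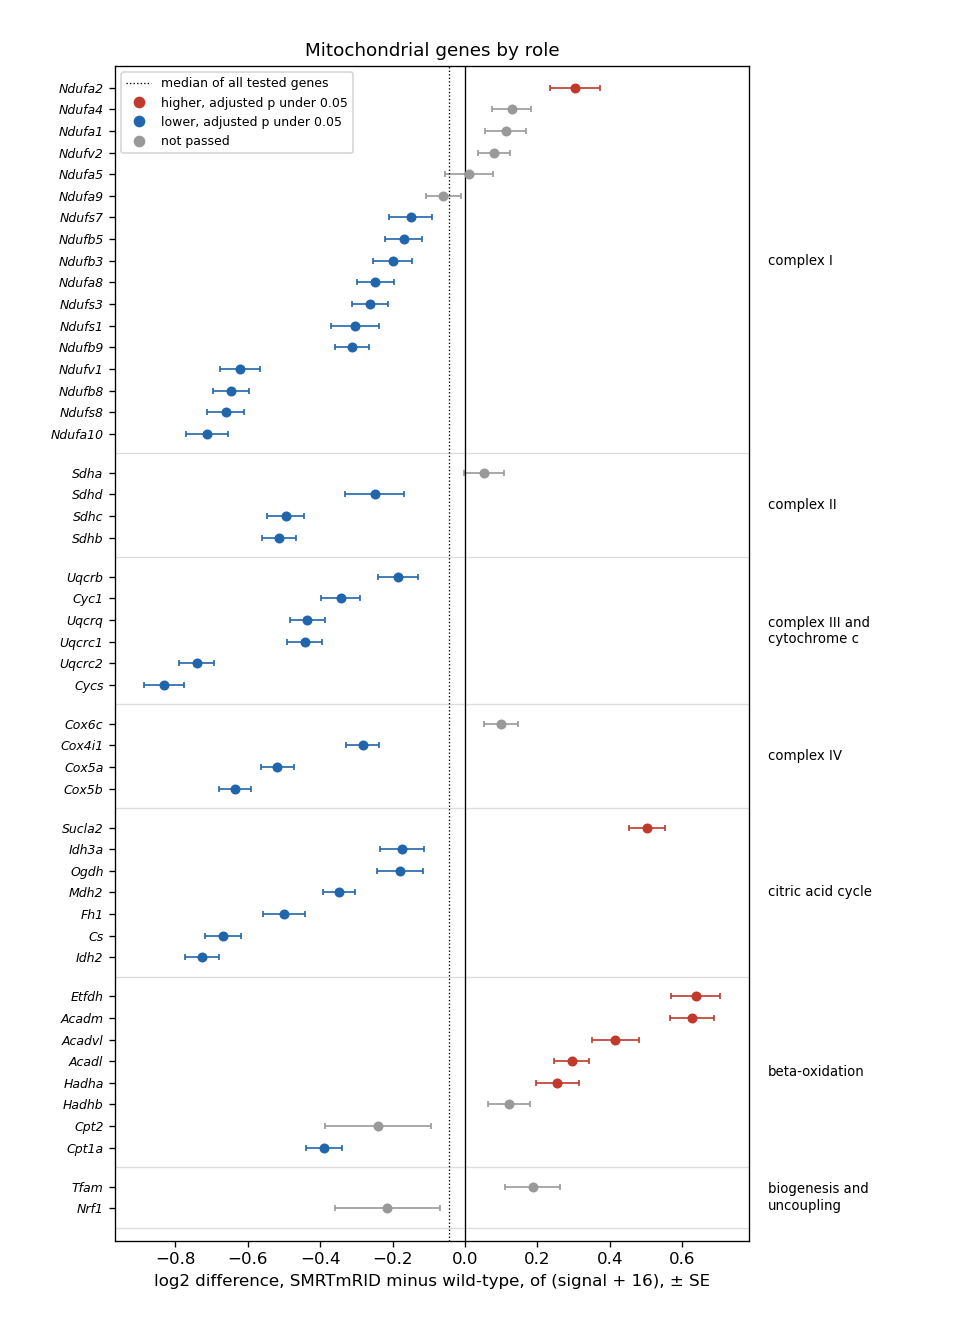
The log2 difference of each of the 48 tested genes, SMRTmRID minus wild-type of (signal + 16), with limma's SE as bars, is grouped by role. Complexes I to IV and the citric acid cycle lie mostly left of 0, down to -0.83 for Cycs, and 5 of 8 beta-oxidation genes are marked as higher, up to 0.64 for Etfdh.

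The promoters of 4 genes are shown to set genes that fell beside genes that rose: Cycs and Ndufs8 fell, while Sucla2 and Etfdh rose. Each window runs from 250 bases before to 50 bases after the RefSeq start, 300 bases on the gene's strand, in GRCm38.p6. Capitals mark matches to 5 motifs searched on both strands. The NRF1 motif was GCGCA, then 1 free base, then GCGC. The others were CCGGAAG for GABP, TCAAGGTCA for oestrogen-related receptors, CCAAT, and a direct repeat for PPAR with RXR. That repeat was of AGGTCA with 1 free base between. The Cycs window is chr6:50566520-50566819 on the minus strand, that of Ndufs8 is chr19:3912725-3913024 on the minus strand, that of Sucla2 is chr14:73552536-73552835 on the plus strand, and that of Etfdh is chr3:79628718-79629017 on the minus strand.
Cycs: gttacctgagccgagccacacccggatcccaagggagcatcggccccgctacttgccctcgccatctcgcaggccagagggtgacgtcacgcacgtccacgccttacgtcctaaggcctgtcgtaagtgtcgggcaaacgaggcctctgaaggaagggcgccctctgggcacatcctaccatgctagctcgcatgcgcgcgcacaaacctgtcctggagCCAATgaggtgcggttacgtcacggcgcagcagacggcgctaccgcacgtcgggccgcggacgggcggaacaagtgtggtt
Ndufs8: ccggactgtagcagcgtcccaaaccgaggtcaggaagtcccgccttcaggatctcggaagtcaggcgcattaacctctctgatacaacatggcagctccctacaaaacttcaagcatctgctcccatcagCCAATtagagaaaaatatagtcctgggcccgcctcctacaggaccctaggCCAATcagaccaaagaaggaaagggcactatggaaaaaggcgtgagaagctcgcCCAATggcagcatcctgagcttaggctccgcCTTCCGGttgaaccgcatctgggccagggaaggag
Sucla2: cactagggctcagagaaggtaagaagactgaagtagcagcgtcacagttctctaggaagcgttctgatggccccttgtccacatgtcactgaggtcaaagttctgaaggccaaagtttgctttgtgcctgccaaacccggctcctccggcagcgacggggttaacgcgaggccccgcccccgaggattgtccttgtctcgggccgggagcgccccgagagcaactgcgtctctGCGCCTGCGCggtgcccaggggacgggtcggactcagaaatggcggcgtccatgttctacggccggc
Etfdh: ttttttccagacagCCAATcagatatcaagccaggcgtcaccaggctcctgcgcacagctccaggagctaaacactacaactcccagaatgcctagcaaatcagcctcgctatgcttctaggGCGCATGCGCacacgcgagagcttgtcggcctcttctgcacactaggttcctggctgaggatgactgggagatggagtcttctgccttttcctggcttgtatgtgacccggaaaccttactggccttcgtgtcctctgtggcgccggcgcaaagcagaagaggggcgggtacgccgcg
The capitals are 1 CCAAT box in Cycs, 3 CCAAT boxes and 1 GABP match in Ndufs8, 1 NRF1 match in Sucla2, and 1 NRF1 match and 1 CCAAT box in Etfdh. In Cycs the letters tcgcatgcgc differ from the NRF1 motif by 1 base and stay unmarked. A window without capitals for a motif may therefore still hold a near match to it.

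Promoter windows were found for 37 of the 48 tested genes. The NRF1 letters were in 7 of the 37 (18.9%), against 5.19% of 27025 genes in the table, and the GABP letters in 6 (16.2%), against 9.93%. The oestrogen-related receptor letters were in 1, Sdhd, against 0.466% of all genes, and the PPAR with RXR letters in none, against 0.0481%. Only 13 of the 27025 genes hold the PPAR with RXR letters. Their absence from 37 promoters therefore says nothing about PPAR sites in these genes. CCAAT was in 12 of the 37 (32.4%), against 41.1%. By direction, NRF1 letters were in 3 of 21 promoters of genes that fell (Ndufa8, Sdhd and Uqcrc1), none of them printed above. Among genes that rose they were in 2 of 6, Sucla2 and Etfdh, both printed above. The printed promoters therefore do not show how common the NRF1 letters are in either direction. GABP letters were in 4 of the 21 (Ndufs3, Ndufs8, Sdhb and Sdhd) and in 0 of the 6. The oestrogen-related receptor and PPAR motifs share the letters AGGTCA, and each motif was counted on its own. These are exact matches of letters, near matches were not counted, and they show no binding.

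Complex I genes mostly fell. Among the 17 tested, 11 fell and 1 rose, and the median difference was -0.20. Ndufa10, an accessory subunit, had signals of 1392 and 1381 in SMRTmRID, against 2171 and 2401 in wild-type (log2 difference -0.71 ± 0.06 SE, adjusted p = 3.98e-06 by limma). Ndufs8, a core subunit that carries iron-sulfur clusters, had 3766 and 3582 in SMRTmRID, against 6010 and 5631 in wild-type (-0.66 ± 0.05, adjusted p = 2.93e-06). Both SMRTmRID arrays were below both wild-type arrays for these genes. Ndufb8, an accessory subunit of the membrane arm, had 1348 and 1409 in SMRTmRID, against 2123 and 2210 in wild-type (-0.65 ± 0.05). Ndufv1, the core subunit that binds FMN and NADH, had 1191 and 1289 in SMRTmRID, against 1943 and 1890 in wild-type (-0.62 ± 0.06). These 4 stood apart from the other 7 that fell, Ndufb9, Ndufs1, Ndufs3, Ndufa8, Ndufb3, Ndufb5 and Ndufs7, which ranged from -0.31 to -0.15. When all probe sets of a gene were averaged, those below the filter included, Ndufa10 had -0.32 and Ndufb8 -0.24, both still passing. Ndufb9 then no longer passed (-0.09).

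Ndufa2 was the complex I gene that rose, with 4086 and 3550 in SMRTmRID and 3203 and 2970 in wild-type (0.30 ± 0.07, adjusted p = 0.00349 by limma). Its difference was 0.20 without SMRTmRID replicate 1. Ndufa1, Ndufa4, Ndufa5, Ndufa9 and Ndufv2 did not pass, with differences between -0.06 and 0.13 and signals from 1350.0 (Ndufa5) to 4981 (Ndufa1). Without SMRTmRID replicate 2, Ndufa1 and Ndufa4 passed at 0.19 each (adjusted p = 0.00987 and 0.0190, limma). Ndufb5 lost its call without SMRTmRID replicate 2 (-0.12) or wild-type replicate 2 (-0.17), and Ndufs7 without SMRTmRID replicate 1 or wild-type replicate 2 (-0.11 each).

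Of the 4 complex II genes, 3 fell. Sdhb, the iron-sulfur subunit, had 1754 and 1767 in SMRTmRID, against 2488 and 2553 in wild-type (-0.51 ± 0.05, adjusted p = 8.37e-06 by limma). Sdhc, a membrane anchor, had 1657 and 1691 in SMRTmRID, against 2285 and 2451 in wild-type (-0.50 ± 0.05). The genotypes did not overlap for either gene. Sdhd, the other anchor, had 904 and 1054 in SMRTmRID, against 1102 and 1229 in wild-type (-0.25 ± 0.08, adjusted p = 0.0219 by limma), and its call was lost without SMRTmRID replicate 1 (-0.14) or wild-type replicate 2 (-0.17). Sdha, the flavoprotein that oxidises succinate, had 1558 and 1565 in SMRTmRID and 1444 and 1570 in wild-type, so that the arrays overlapped (0.05 ± 0.06, adjusted p = 0.429 by limma).

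All 6 genes of complex III and cytochrome c fell, with a median of -0.44. Cycs, the cytochrome c gene, had signals of 3012 and 2822 in SMRTmRID, against 5422 and 4983 in wild-type (-0.83 ± 0.06, adjusted p = 1.23e-06 by limma). This was the largest difference of the 48 tested genes, 1.78-fold lower in SMRTmRID on the scale of signal + 16. Another probe set of Cycs gave -0.45. Uqcrc2, a core subunit, had 1075 and 1101 in SMRTmRID, against 1835 and 1824 in wild-type (-0.74 ± 0.05). Uqcrc1, the other core subunit, had 1330 and 1355 in SMRTmRID, against 1812 and 1849 in wild-type (-0.44 ± 0.05). Uqcrq, a small subunit, had 1503 and 1541 in SMRTmRID, against 2029 and 2099 in wild-type (-0.44 ± 0.05). Cyc1, the cytochrome c1 gene, and Uqcrb had differences of -0.34 and -0.19. The call of Uqcrb was lost without SMRTmRID replicate 2 (-0.11) or wild-type replicate 1 (-0.18).

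In complex IV, the cytochrome c oxidase, 3 of 4 tested genes fell. Cox5b had 3546 and 3457 in SMRTmRID, against 5389 and 5498 in wild-type (-0.63 ± 0.04, adjusted p = 1.52e-06 by limma), and -0.40 with the mean of its probe sets. Cox5a had 4632 and 4452 in SMRTmRID, against 6416 and 6614 in wild-type (-0.52 ± 0.05). Cox4i1, which encodes the widely expressed isoform of subunit 4, had 6322 and 6143 in SMRTmRID, against 7415 and 7761 in wild-type (-0.28 ± 0.05). Its isoform counterpart Cox4i2 lay below the filter, at 3.34 and 35.1 in SMRTmRID and 24.2 and 5.67 in wild-type. Cox6c had 5686 and 5758 in SMRTmRID, against 5188 and 5504 in wild-type (0.10 ± 0.05, adjusted p = 0.0942 by limma). Cox7a1, the heart and skeletal muscle isoform of subunit 7a, was not tested, at 26.3 and 35.6 in SMRTmRID and 15.7 and 21.7 in wild-type. The liver isoform gene Cox7a2 had 5158 and 5211 in SMRTmRID, against 5802 and 6042 in wild-type (-0.19 ± 0.04, adjusted p = 0.00418 by limma). That call was lost when the mean of its probe sets was used (-0.09, adjusted p = 0.0867).

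In the citric acid cycle, 6 genes fell and Sucla2 rose. Idh2, the NADP-dependent mitochondrial isocitrate dehydrogenase, had 1331 and 1340 in SMRTmRID, against 2201 and 2237 in wild-type (-0.73 ± 0.05, adjusted p = 9.80e-07 by limma). Cs, the citrate synthase gene that opens the cycle, had 1682 and 1772 in SMRTmRID, against 2713 and 2794 in wild-type (-0.67 ± 0.05). Fh1, the fumarase gene, had 904 and 883 in SMRTmRID, against 1220 and 1322 in wild-type (-0.50 ± 0.06). Each of these had both SMRTmRID arrays below both wild-type arrays. Sucla2, the ADP-forming beta subunit of succinyl-CoA ligase, had 1664 and 1672 in SMRTmRID, against 1173 and 1173 in wild-type (0.50 ± 0.05, adjusted p = 1.35e-05 by limma). The mean of the probe sets of Sucla2 gave 0.21 and did not pass (adjusted p = 0.244), nor did another probe set of Idh2, at -0.33 (adjusted p = 0.30, limma).

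Mdh2, the mitochondrial malate dehydrogenase gene, had a difference of -0.35, and Idh3a and Ogdh, of the NAD-dependent isocitrate and the oxoglutarate dehydrogenases, had -0.17 and -0.18. The calls of Idh3a and Ogdh depended on single arrays. That of Idh3a was lost when SMRTmRID replicate 1 (-0.12, adjusted p = 0.170) or wild-type replicate 2 (-0.14, adjusted p = 0.127, limma) was left out. That of Ogdh was lost with any one of the 4 arrays left out (adjusted p between 0.0554 and 0.111, limma). Of the cytosolic counterparts, Idh1 had 2149 and 2271 in SMRTmRID, against 1069 and 1087 in wild-type (1.02 ± 0.05, adjusted p = 1.94e-07 by limma), and Mdh1 had 3914 and 3671 in SMRTmRID and 3635 and 3457 in wild-type (0.10 ± 0.05, adjusted p = 0.126 by limma). Mdh1 passed with quantile normalization (0.22).

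Of the 8 beta-oxidation genes, Etfdh, Acadm, Acadvl, Acadl and Hadha rose. Etfdh, which passes electrons from acyl-CoA dehydrogenases to ubiquinone, had 677 and 647 in SMRTmRID, against 413 and 426 in wild-type (0.64 ± 0.07, adjusted p = 2.51e-05 by limma). Acadm, the medium-chain acyl-CoA dehydrogenase, had 1161 and 1224 in SMRTmRID, against 738 and 797 in wild-type (0.63 ± 0.06, adjusted p = 1.50e-05 by limma). Acadvl, the very-long-chain enzyme, had 883 and 940 in SMRTmRID, against 656 and 703 in wild-type (0.42 ± 0.06). In all 3 the SMRTmRID arrays were the higher pair. Acadl, the long-chain enzyme, had 1901 and 1972 in SMRTmRID, against 1558 and 1594 in wild-type (0.29 ± 0.05). The mean of its probe sets gave 0.51, but its other probe set had a mean signal of 6.67, below the filter. Hadha, the alpha subunit of the trifunctional protein, had 986 and 972 in SMRTmRID, against 850 and 787 in wild-type (0.26 ± 0.06). Hadhb, its beta subunit, had 1630 and 1802 in SMRTmRID and 1581 and 1567 in wild-type (0.12 ± 0.06, adjusted p = 0.0929 by limma), and passed without SMRTmRID replicate 1 (0.19, adjusted p = 0.0199).

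The entry step went the other way. Cpt1a, the carnitine acyltransferase of the outer membrane that controls entry, had 1229 and 1238 in SMRTmRID, against 1648 and 1594 in wild-type (-0.39 ± 0.05, adjusted p = 9.11e-05 by limma). Cpt2, its partner of the inner membrane, had 320 and 369 in SMRTmRID and 489 and 342 in wild-type, so that the arrays overlapped (-0.24 ± 0.15, adjusted p = 0.179 by limma). The wild-type arrays disagreed: replicate 1 (489) was above both SMRTmRID arrays, and replicate 2 (342) lay between them. The Cpt2 difference was -0.49 without wild-type replicate 2, and over the alternatives it ranged from -0.49 to 0.13. The brain isoform gene Cpt1c had 337 and 381 in SMRTmRID and 394 and 402 in wild-type (-0.14 ± 0.09, adjusted p = 0.168 by limma).

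**Figure D2:**
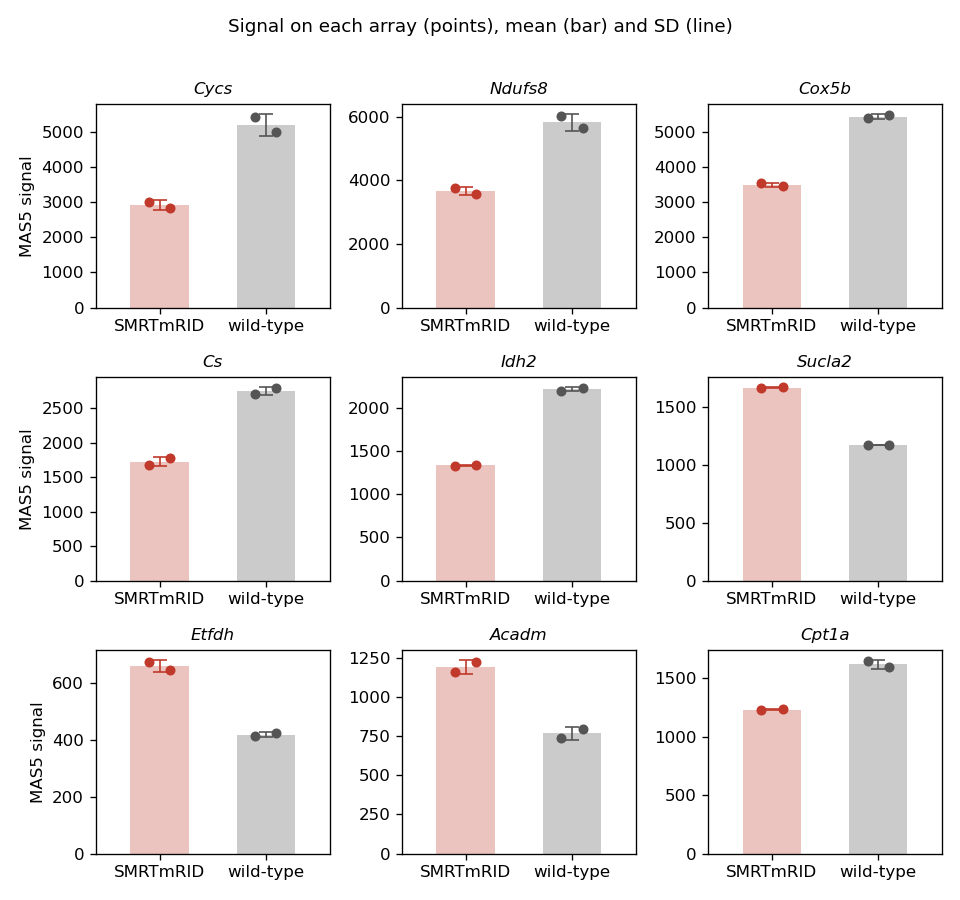
MAS5 signals of 9 genes on each array are shown as points, with the mean of 2 arrays as a bar from 0 and the SD as a line, SMRTmRID left of wild-type. Cycs, Ndufs8, Cox5b, Cs, Idh2 and Cpt1a are lower on both SMRTmRID arrays, and Sucla2, Etfdh and Acadm are higher on both.

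Neither tested gene of mitochondrial biogenesis passed. Tfam, which packages and transcribes mitochondrial DNA, had 482 and 500 in SMRTmRID, against 409 and 450 in wild-type (0.19 ± 0.08, adjusted p = 0.0546 by limma). It passed at 0.25 when wild-type replicate 2 was left out (adjusted p = 0.0319). Nrf1, the nuclear respiratory factor gene, had 139 and 117 in SMRTmRID and 140 and 162 in wild-type (-0.21 ± 0.14, adjusted p = 0.221 by limma). Of the uncoupling proteins, Ucp1 lay below the filter, with 1.33 and 4.85 in SMRTmRID and 5.62 and 3.16 in wild-type. Ucp3 did not pass, with 45.2 and 46.0 in SMRTmRID and 30.0 and 36.1 in wild-type (adjusted p = 0.275 by limma).

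Further probe sets gave a check within genes. The 49 genes had 107 probe sets, and 27 genes had several above the filter. For 19 of the 27 all such probe sets moved in one direction, among them the 3 each of Cs, Cycs, Cox5a and Ndufv1 and the 6 of Ndufs8. For 8 they did not: Cox6c, Cpt2, Idh3a, Ndufa10, Ndufb8, Ndufv2, Nrf1 and Sdha. In a fit over 20080 probe sets, of which 61.1% passed, 3 genes had a further probe set that passed in the direction opposite to the brightest. The second probe set of Cox6c had 2545 and 2709 in SMRTmRID, against 3868 and 5052 in wild-type (-0.75 ± 0.10, adjusted p = 0.000220 by limma), so the direction of Cox6c depends on the probe set. The others were 1 probe set of Ndufv2 (-0.17) and 1 of Sdha (-0.21). The second probe set of Tfam rose by 0.73 (adjusted p = 0.00620 by limma). The further probe sets of Idh3a, Ndufa10 and Ndufb8 were dim, with mean signals up to 97.5, 47.8 and 66.8, and did not pass.

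**Figure D3:**
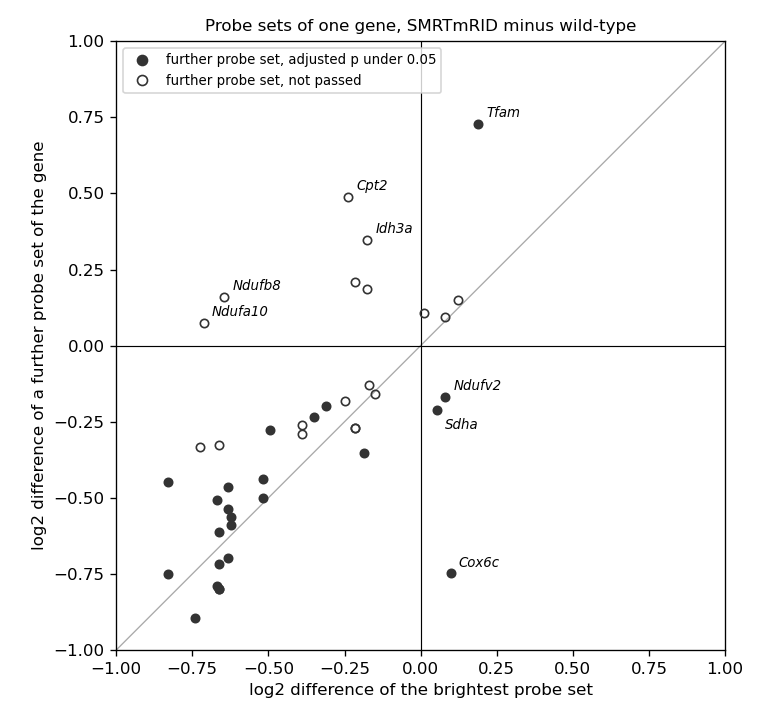
Each point is a further probe set above the filter, with the log2 difference of the gene's brightest probe set on the horizontal axis and its own on the vertical axis, both SMRTmRID minus wild-type, and the diagonal marks equality. Most filled points, which passed, lie in the lower left, and Cox6c (0.10 against -0.75), Ndufv2 and Sdha lie in the lower right.

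Chromosome 7 moved with the result for some of these genes. Its 814 tested genes had a median of -0.54, and 61.4% of them were lower, against 35.0% of all genes. Uqcrc2 and Idh2 are on chromosome 7, and Cox4i1 is on chromosome 8, whose 617 genes had a median of -0.29. Without chromosome 7, 28 of the 46 tested genes fell and 7 rose. With each gene set against the median of its own chromosome, the median was -0.26 for complexes I to IV, -0.18 for the citric acid cycle and 0.30 for beta-oxidation. Ndufs8, Ndufv1, Ndufb8 and Cpt1a are all on chromosome 19, whose median was -0.16.

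Other nuclear genes of oxidative phosphorylation were mostly lower too, on lists chosen with these data known. The counts of each list here and below stand against 35.0% lower and 30.3% higher among all tested genes. Of 16 further complex I subunit genes 11 fell and 2 rose, with a median of -0.25. Ndufab1, the mitochondrial acyl carrier protein, had a difference of -0.77 on its brightest probe set and of 0.01 on the mean of its probe sets (adjusted p = 0.947 by limma), while Ndufv3 rose by 0.68. Of 13 complex I assembly factor genes 7 fell and 0 rose, with Timmdc1 at -0.80 and Ndufaf4 at -0.95, or -0.54 with the mean of its probe sets. Of 29 further complex II to IV subunit and assembly genes 15 fell and 5 rose, leaving out Cox7c, which was above the filter only through SMRTmRID. Counted with Cox7c 6 rose, but 2 when SMRTmRID replicate 1 and 3 when wild-type replicate 2 was left out. Sdhaf1, a complex II assembly factor, had -1.16, Sco2, which brings copper to complex IV, -1.01, and Bcs1l, a complex III assembly factor, -0.96. Of 17 ATP synthase genes 13 fell and 0 rose, with a median of -0.27. With quantile normalization 9 fell and 3 rose, and without the variance trend 8 fell. Atp5g1, a gene for the c subunit of the membrane ring, had 794 and 787 in SMRTmRID, against 1450 and 1550 in wild-type (-0.91 ± 0.06), but did not pass with the mean of its probe sets (-0.28, adjusted p = 0.0567 by limma). Of 6 other citric acid cycle genes 2 rose, among them Dld at 0.30 (0.57 with the mean of its probe sets), and 2 fell, among them Dlst at -0.67.

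Genes of the outer membrane and of protein import were lower in 12 of 16 cases and higher in 1, with a median of -0.30. Tomm40, the import channel, had 376 and 330 in SMRTmRID, against 880 and 876 in wild-type (-1.28 ± 0.08, adjusted p = 5.57e-07 by limma). Among 16 genes that copy and transcribe mitochondrial DNA 5 fell (31.25%) and 4 rose (25%), or 1 with the mean of probe sets. Both shares are near the 35.0% lower and 30.3% higher of all tested genes. Polg, the DNA polymerase gene, had 198 and 213 in SMRTmRID, against 546 and 588 in wild-type (-1.40 ± 0.09, adjusted p = 6.77e-07 by limma), and Polrmt, the RNA polymerase gene, had -1.06. Of 12 inner membrane carrier and uncoupling genes 5 fell, or 3 with the mean of probe sets, and 2 rose. Slc25a27 rose by 1.16, by 0.75 without wild-type replicate 2, and by 0.58 with the mean of its probe sets.

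Other mitochondrial genes of fatty acid oxidation went both ways: of 19, 9 fell (47.4%) and 5 rose (26.3%), with a median of 0.03. Among all tested genes above the 75th percentile of signal, 42.6% were lower and 32.8% higher. Acot2, a matrix thioesterase, had -1.08, Decr1, which handles unsaturated chains, -0.85 (-0.39 with the mean of its probe sets), and Etfb, a subunit of the electron transfer flavoprotein that feeds Etfdh, -0.78. Acad10 had 136 and 118 in SMRTmRID, against 59.8 and 36.0 in wild-type (1.18 ± 0.22, adjusted p = 0.00107 by limma), and 0.60 with the mean of its probe sets. Echs1 and Hadh, the enzymes of the hydratase and short-chain dehydrogenase steps, had -0.61 and 0.26, and Hadh did not pass with the mean of its probe sets (0.14).

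Of 9 peroxisomal beta-oxidation genes 7 rose and 0 fell, with a median of 0.42. Crot, the carnitine octanoyltransferase, had 560 and 557 in SMRTmRID, against 311 and 330 in wild-type (0.77 ± 0.07). Abcd3, a peroxisomal fatty acyl-CoA transporter, had 1420 and 1307 in SMRTmRID, against 918 and 919 in wild-type (0.56 ± 0.06), but did not pass with the mean of its probe sets (0.34). Pex11a, which acts in peroxisome division, had a difference of 0.52. Abcd2, another such transporter, was above the filter only through SMRTmRID and is left out of that count, with 97.1 and 72.3 in SMRTmRID, against 27.9 and 8.03 in wild-type. Ehhadh lay below the filter on its mean signal and was not tested, with 48.4 and 42.5 in SMRTmRID, against 0.753 and 1.00 in wild-type. The call of Hsd17b4, at 0.22, was lost without SMRTmRID replicate 2 (0.18) or wild-type replicate 2 (0.16), and Scp2, at 0.31, had 0.19 without wild-type replicate 1.

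Regulators of these genes went both ways, with 5 of 13 higher and 3 lower, or 1 lower with the mean of probe sets. The shares were 38.5% higher and 23.1% lower, against 30.3% and 35.0% of all tested genes. Nrip1 had the largest difference, with 426 and 533 in SMRTmRID, against 150 and 155 in wild-type (1.55 ± 0.12, adjusted p = 2.38e-06 by limma). Prkaa1 and Gabpb2 rose by 0.92 and 0.63, and Nfe2l2 had -0.35, or 0.03 with the mean of its probe sets. Gabpa, the DNA-binding subunit of GABP, had 712 and 595 in SMRTmRID, against 262 and 285 in wild-type (1.21 ± 0.10, adjusted p = 3.73e-06 by limma), and 0.78 with the mean of its probe sets. Pprc1, a coactivator related to PGC-1alpha, had 385 and 439 in SMRTmRID, against 819 and 810 in wild-type (-0.96 ± 0.08). Esrra, an oestrogen-related receptor gene, had -0.45 and Ppard, the PPARdelta gene, 0.39, and neither passed with the mean of its probe sets (-0.30 and 0.21). Ppargc1a, the PGC-1alpha gene, was below the filter at 35.7 and 20.6 in SMRTmRID and 39.7 and 12.6 in wild-type. Of 10 PPAR-responsive genes 3 rose and 6 fell, with a median of -0.35. Angptl4 had the largest difference of this list, with 2699 and 2921 in SMRTmRID, against 155 and 154 in wild-type (4.05 ± 0.06, adjusted p = 1.60e-10 by limma). Vldlr had -1.13, or -0.71 with the mean of its probe sets. Pdk4, a kinase that inhibits pyruvate dehydrogenase, had 141 and 177 in SMRTmRID, against 62.9 and 55.8 in wild-type (1.21 ± 0.17). Acot2, Slc25a20 and Acaa2 are counted in both mitochondrial beta-oxidation and the PPAR-responsive list, Ucp3 among carriers and PPAR-responsive genes, and Cox7a2 among complex IV genes and tissue isoforms.

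**Figure D4:**
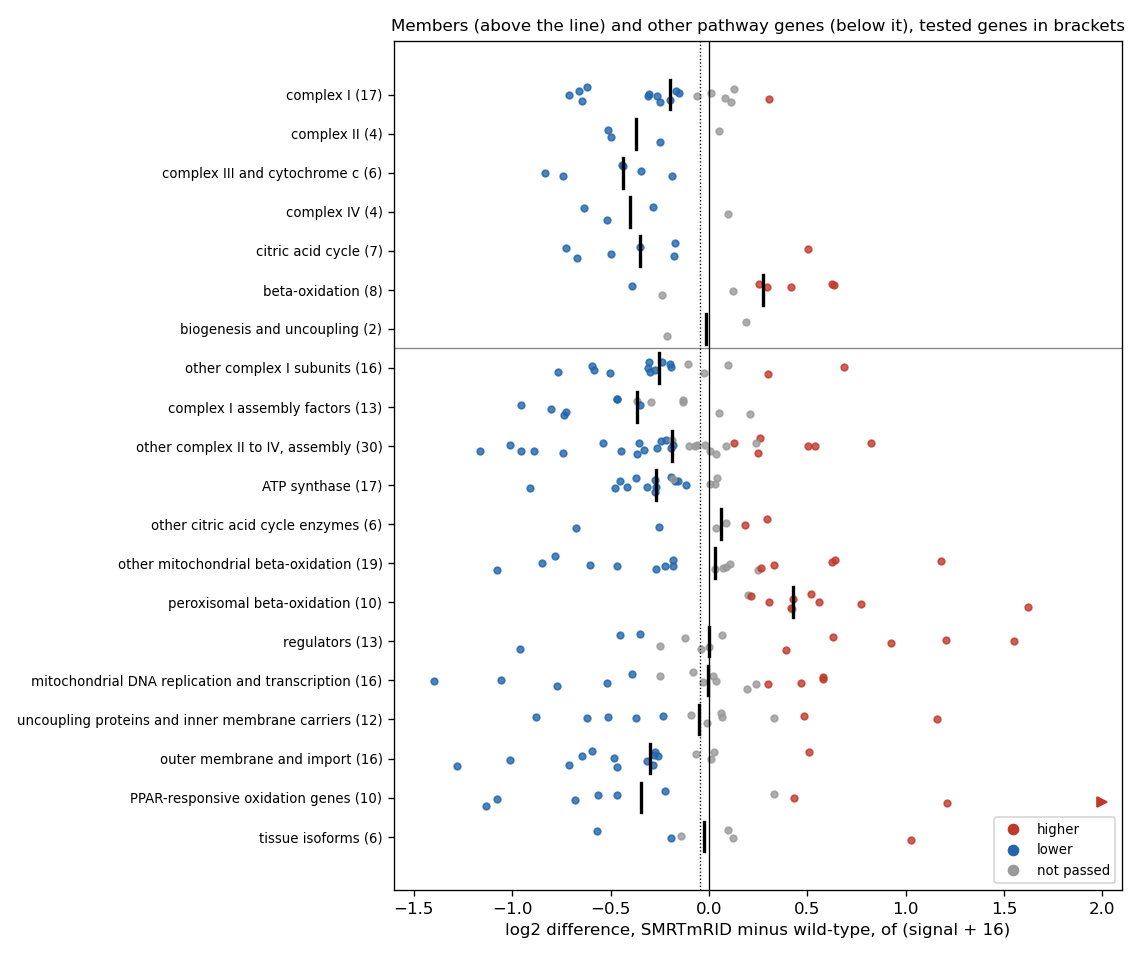
Tested genes are plotted by log2 difference, SMRTmRID minus wild-type, with 1 row a list, the number of tested genes in brackets and a black bar at the median. The dotted line is the median of all tested genes, -0.05. The arrowhead at the right edge is Angptl4, of the PPAR-responsive list, at 4.05. Peroxisomal beta-oxidation (0.43, with Abcd2) and the 8 mitochondrial beta-oxidation genes (0.27) have the highest medians.

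The mitochondrial genome itself is represented by 1 named gene, chosen after its values were seen. ND5, a core complex I subunit made inside mitochondria, had 5923 and 4855 in SMRTmRID, against 2211 and 2493 in wild-type (1.19 ± 0.09, adjusted p = 2.49e-06 by limma). It was higher on both SMRTmRID arrays, while 11 of the 17 nuclear complex I genes fell. With 1 probe set it has no second measurement.

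Fibroblast markers were carried unevenly by the genotypes. On both arrays, 9 of 9 were above the filter in SMRTmRID and 7 of 9 in wild-type, with summed signals of 77950 to 82157 in SMRTmRID, against 68422 to 70077 in wild-type. Collagen genes, Vim and Fn1 make up most of these sums. Single markers went both ways. Vim had a mean of 12664 in SMRTmRID, against 14123 in wild-type, S100a4 7610 against 9465, and Fn1 8905 against 10087. Col1a1 was nearly level, at 13208 against 13062, and Col3a1 was higher in SMRTmRID, at 14054 against 9117. Thy1, a surface marker of fibroblasts, had 3172 and 3184 in SMRTmRID, against 20.6 and 6.57 in wild-type. Fap had 484 and 472 in SMRTmRID, against 4.20 and 9.04 in wild-type. Pdgfra, a growth factor receptor of mesenchymal cells, had 4828 and 5090 in SMRTmRID, against 247 and 262 in wild-type. The mean signals of all 5 endothelial and all 4 hepatocyte markers were below the filter, as were those of Adipoq and Ucp1, which define white and brown adipocytes. Above it were 3 of 6 macrophage and leukocyte markers (Adgre1, Csf1r and Lyz2), 2 of 5 epithelial ones (Epcam and Krt19) and Lipe of 5 adipocyte ones. Lyz2 had a mean of 100 in SMRTmRID, against 21.5 in wild-type, and Krt19 68.3 against 5.55. Csf1r had 164 against 176, and Epcam 135 against 179. Below the filter on its mean, the epithelial marker Cdh1 had 2.41 and 1.61 in SMRTmRID, against 55.9 and 42.3 in wild-type. Kdr, an endothelial marker, had 44.3 and 35.6 in SMRTmRID, against 22.4 and 31.8 in wild-type. Cdh1 was thus above the filter on both wild-type arrays, and Kdr on both SMRTmRID arrays. Summed markers of 2 tissues rich in mitochondria moved with genotype. The 9 skeletal and heart muscle markers summed to 202 to 224 in SMRTmRID, against 443 to 599 in wild-type, and the 8 brown adipocyte markers to 142 to 156 in SMRTmRID, against 243 to 318 in wild-type. These sums are carried by Acta1 (8.63 and 4.35 in SMRTmRID, against 324 and 203 in wild-type) and by Prdm16 (9.99 and 12.5 in SMRTmRID, against 169 and 148 in wild-type). Myog, Myod1, Mb, Myh6 and Tnni1 were below the filter. Ckm, Tnnt2 and Cox6a2 were above it, with means of 40.7, 29.0 and 62.1 in SMRTmRID, against 36.8, 53.7 and 100 in wild-type. The part of these markers in the result was not tested.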

How the data were processed

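Total RNA of SMRTmRID and wild-type cells was hybridised to 1-colour arrays, 2 for each genotype, and genotypes and replicate numbers come from the sample titles. The deposited intensity values are MAS5 signals on a linear scale, 1 per probe set and array, per the submitters' processing notes. Trimmed of 2% at each end, the deposited signals averaged 200.0 on every array. The file holds 45101 probe sets, of which 64 controls were left out and 34945 had 1 gene symbol in GEO's platform annotation. The brightest probe set on average stands for a gene. Genes with a mean signal above 35.1, the median of all values, were tested: 11057 of 18193. The mean of probe sets, an alternative, took every probe set of a gene, also those below this level. Signal is the only guide to precision here, and 2 arrays a genotype limit it.

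Values were taken as log2(signal + 16) and tested over all 4 arrays, without covariates, by the lmFit and eBayes functions of limma 3.58.1 (R 4.3.3), allowing the variance to follow the mean, with Benjamini-Hochberg adjustment over the tested genes. SEs are limma's, and p-values are two-sided. The fit was also run on simulated data in which few genes changed and the spread was that of these arrays. That run says nothing about biological spread, or about data in which most genes pass. No set test was made. The members and the gene lists were chosen with earlier results of these data known. By the rule for names, up to 4 called genes with the largest difference in each role group are given with the signal of each array, and those that did not pass by values or range; Acadl and Hadha were added after their values were seen. For other lists up to 4 called genes are named, with isoform counterparts. Further genes of those lists and Cox7c and Abcd2, left out of list counts, were chosen after their values were seen.

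Across genes, deviations from the genotype mean correlated at 0.0122 between arrays that share a number, so no pairing by number was seen. The labels do not say whether such arrays were run together. Pearson's r across the tested genes was 0.991 within each genotype and 0.860 to 0.861 between them. Chromosomes and promoter sequences are from RefSeq tables of GRCm38.p6. Alternatives were pseudocounts of 1 and 64, no filter and a filter at the 75th percentile (203), quantile normalization, median centring, no trend, other rules for the probe set, chromosome 7 left out, a replicate block, and leaving out 1 array at a time.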

Additional observations from a re-analysis of the deposited data

How the results depend on the processing

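Of the 37 genes that passed, 24 kept their call and direction under every alternative that gave a value, 13 lost the call under at least 1, and 2 of these changed sign. Of the 37, 33 had a value under all 15 alternatives and 4 under 14 of them. Of the 11 that did not pass, 8 passed under at least 1. Idh3a had 0.29 with the mean of probe sets and 0.19 with another probe set by suffix class, and Ndufb8 had 0.16 with the same choice. Cox6c, which did not pass, had -0.32 with the mean of probe sets. The p-values rest on 2 technical arrays a genotype.

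Most medians and counts moved little. With quantile normalization 13 genes rose and 27 fell, with 4 higher in complex I, 1 in complex II and 1 in complex IV. Its medians were -0.19 over all 48 genes, -0.16 for complex I, -0.35 for complex III with cytochrome c, -0.36 for complex IV, -0.22 for the citric acid cycle, 0.33 for beta-oxidation and -0.061 over all genes tested. With the mean of probe sets the medians were -0.15 for complex I, -0.40 for complex III with cytochrome c, -0.36 for complex IV, -0.29 for the citric acid cycle, 0.39 for beta-oxidation, 0.16 for biogenesis and -0.0065 over all genes. The counts of higher genes were then 0 in the citric acid cycle and 1 in biogenesis. With another probe set by suffix class the medians were -0.22 over all members, -0.17 for complex I, -0.28 for complex IV, -0.33 for the citric acid cycle, 0.20 for biogenesis and -0.030 over all genes.

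A pseudocount of 64 gave a beta-oxidation median of 0.26. With no filter the median was -0.28 for complex IV and -0.0012 over all genes. Above the 75th percentile, 2 complex I genes rose, biogenesis (Tfam alone) had 0.19, and all genes had -0.080. Without a variance trend 0 complex I genes rose. Without chromosome 7 the median was -0.26 for the citric acid cycle and -0.014 over all genes. Relative to the median of each gene's chromosome, an alternative chosen after seeing the data, the medians were -0.20 over all members, -0.24 for complex I, -0.28 for complex II, -0.30 for complex III with cytochrome c, -0.23 for complex IV, -0.18 for the citric acid cycle and 0.30 for beta-oxidation.

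With the replicate block, 2 complex I genes and 1 biogenesis gene rose, and 9 rose and 30 fell in all. The labels do not say that the replicate numbers pair the arrays. With 1 array left out, 7 to 9 genes rose and 26 to 28 fell, 1 to 3 rose in complex I, 0 to 1 rose in biogenesis, and 1 to 2 fell in beta-oxidation. The medians were then -0.27 to -0.21 over all members, -0.46 to -0.42 for complex III with cytochrome c, 0.26 to 0.29 for beta-oxidation and -0.062 to -0.034 over all genes. A lone array is assumed to vary like the others. The causes of these shifts were not tested.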
